A study of Mus musculus with 7 samples.

Results

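The genes described here encode the proteins of the cytosolic ribosome. They were taken from the count table by symbol: names that begin with Rpl or Rps followed by a digit, together with Rplp0, Rplp1, Rplp2 and Rpsa, leaving out the S6 kinase genes (Rps6k) and pseudogene symbols. The rule found 87 of 21861 rows. Of these, 77 were core ribosomal protein genes: 43 of the large subunit, 3 of its stalk and 31 of the small subunit. The others were 7 paralogs of core genes, 2 retrogenes (Rps27rt and Rps23rg1) and Rps19bp1, whose product binds RPS19 and is not itself a ribosomal protein.

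The RNA came from retinal pigment epithelium (RPE), the pigmented layer that supports the photoreceptors, of aged mice. One group had been treated with an adeno-associated virus (AAV) carrying GFP (Old-GFP, 3 libraries) and the other with an AAV carrying GSTA4, a glutathione transferase that detoxifies lipid aldehydes (Old-GSTA4, 4 libraries). Tissue was collected 12 weeks after treatment, so both groups had received vector and no untreated group was analysed here. The strain, exact age, sex, vector promoter and number of animals behind a library are not given in the sources used here, and p-values measure the spread between these libraries, which may be technical.

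Each ribosome holds a single copy of most of its proteins, and cells therefore make them in matched amounts. Many of their mRNAs begin with a cytosine followed by a run of pyrimidines, the terminal oligopyrimidine (TOP) motif, through which LARP1 and the kinase mTOR adjust their translation. Because they are abundant and expressed in every cell, several of these genes are used as reference genes.

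The libraries held between 15329181 and 28998964 counts. The human GSTA4 transgene row had 1 to 3 counts in the Old-GFP libraries and 45 to 5239 in the Old-GSTA4 libraries, whereas the d2EGFP row overlapped between the groups (99 to 3970 and 7 to 163 counts). RPE marker genes, Rpe65 and Rlbp1 among them, took 3.4% to 7.4% of counts in Old-GFP and 5.92% to 10.1% in Old-GSTA4. All 20 markers of the list passed the expression filter, as did 20 of 20 rod photoreceptor and 13 of 15 lens markers. Of the RPE markers, 17 were higher in Old-GSTA4 (median log2 fold change 0.61), 7 of them at an unadjusted p under 0.05 by edgeR. All 13 lens markers tested were higher (median 2.49), 9 of them at that threshold, beside 5.27% of all genes. Lens shares overlapped, at 0.445% to 1.51% in Old-GFP and 0.442% to 12.2% in Old-GSTA4. The groups differed in makeup. Rod shares were 1.86% to 6.51% in Old-GFP and 0.923% to 1.67% in Old-GSTA4. At an unadjusted p under 0.05 by edgeR, 18 of 20 rod markers were lower in Old-GSTA4 (median log2 fold change -1.19). Mueller glia marker shares were 1.17% to 1.36% in Old-GFP and 1.5% to 2.15% in Old-GSTA4, but single markers were mixed. Of 9 tested, 6 were higher in Old-GSTA4 (median log2 fold change 0.20). At that threshold 3 were higher and 1 was lower, beside 5.27% and 6.63% of all genes. The Mueller glia list also holds Rlbp1, an RPE marker above. A pair of libraries also stood apart: Old-GFP replicate 3 had a rod marker share of 6.51%, against 0.923% to 3.27% elsewhere, and Old-GSTA4 replicate 2 had a lens marker share of 12.2%, against 0.442% to 2.74% elsewhere. In bulk RNA, fewer cells of a type and less RNA per cell cannot be told apart.

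The TOP motif is the sequence feature best known in this family, so the annotated starts were searched for it. RefSeq start windows on GRCm38.p6 were found for 67 members, and 14 of them had a start at which the first base was C and the next 4 or more bases were C or T. Counted by window, 14 of 79 members' windows (17.722%) held this start, against 2.505% of all 32851 windows. The examples below run from 20 bases before the annotated start to 10 bases into the transcript, and capitals mark the pyrimidine run that opens the transcript. Rps6 (chr4:86857358-86857387, minus strand), Rps27 (chr3:90213639-90213668, minus strand), Rpl38 (chr11:114668560-114668589, plus strand), Rplp2 (chr7:141447631-141447660, plus strand) and Rpl28 (chr7:4792945-4792974, plus strand) held it. The paralogs Rpl22l1 (chr3:28805488-28805517, plus strand) and Rpl7l1 (chr17:46782647-46782676, minus strand) are shown for contrast, since they had no such start and are described further on.
Rps6: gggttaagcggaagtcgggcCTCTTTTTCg
Rps27: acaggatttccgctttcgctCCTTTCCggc
Rpl38: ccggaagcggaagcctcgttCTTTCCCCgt
Rplp2: cccactgcgtcagcgtcttcCTTTCgccgc
Rpl28: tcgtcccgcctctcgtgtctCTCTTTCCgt
Rpl22l1: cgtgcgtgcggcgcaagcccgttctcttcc
Rpl7l1: gcccggtgaggctgcgcaagcgcagtagct
An annotated start can lie some bases from the start used in a cell, so a missing match says only that the letters are not at that position. In windows of 300 bases around the start, searched on both strands, the ETS-type motif CCGGAAGT was present in 12 of the 79 members' windows (15.19%, against 3.887% of all windows), and TCTCGCGA was also present in 12 (15.19%, against 0.995%). The fitted log2 difference between the groups had a median of -0.10 over the 14 members with a TOP-type start and -0.07 over the 50 tested members with a window and no such start.

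The ribosomal protein genes differed between libraries more than between treatments. In Old-GFP they took 1.10%, 1.39% and 0.911% of all counts in replicates 1 to 3. In Old-GSTA4 they took 0.72%, 1.43%, 0.754% and 0.897% in replicates 1 to 4. The highest and the lowest share both came from Old-GSTA4, and the groups overlapped. The mean was 1.13% ± 0.241 (SD, n = 3) in Old-GFP and 0.95% ± 0.329 (SD, n = 4) in Old-GSTA4. That gap depended on the scale: after trimmed-mean (TMM) scaling of library sizes, which gave Old-GFP replicate 3 a factor of 1.364 and the other libraries 0.8678 to 1.048, the summed level was 10400 CPM (counts scaled to a common library total) in each group, with SDs of 3370 and 3740. All CPM values below carry this scaling.

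**Figure D1:**
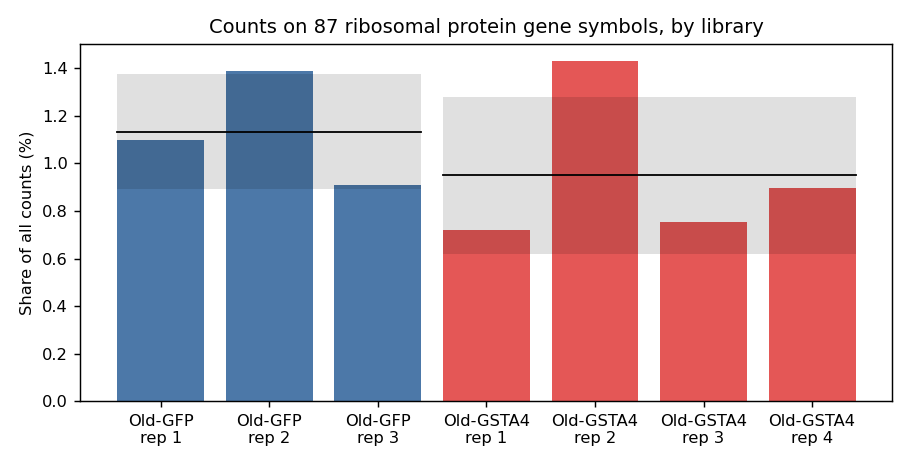
Share of all counts, in percent, on the 87 ribosomal protein gene symbols in each library; black lines are group means and grey bands are 1 SD. Old-GSTA4 replicate 2 (1.43%) and Old-GFP replicate 2 (1.39%) stand above the other 5 libraries.

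The members moved together. Of the 84 members that passed the expression filter, 40 had their highest CPM in Old-GSTA4 replicate 2 and 35 in Old-GFP replicate 2. Old-GFP replicate 3 held the lowest value of 58 members and Old-GSTA4 replicate 1 that of 19. Relative to each gene's own mean log2 CPM, the median member lay at 0.21, 0.48 and -0.55 in Old-GFP replicates 1 to 3 and at -0.41, 0.48, -0.16 and -0.07 in Old-GSTA4 replicates 1 to 4. Each group thus held both high and low libraries.

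Within its group, Old-GSTA4 replicate 2 was above all of the other libraries for 73 of 84 members, against 27.4% of all genes tested, and its median fold over the mean of the others was 1.6 for members and 0.975 for all genes. Old-GFP replicate 3 was below both others of its group for 78 of 84 members, against 41.9% of all genes, with a median fold of 0.518 for members and 1.01 for all genes. These are the libraries with the high lens and rod marker shares, and the part of those tissues in the ribosomal protein levels was not tested. Rps19 showed the lens-rich library most: it had 856 CPM there and 155, 156 and 234 CPM in the other Old-GSTA4 libraries. Rpl7l1 went the other way, being lower in Old-GSTA4 replicate 2 (104 CPM) than in the others of its group (117 to 152 CPM).

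**Figure D2:**
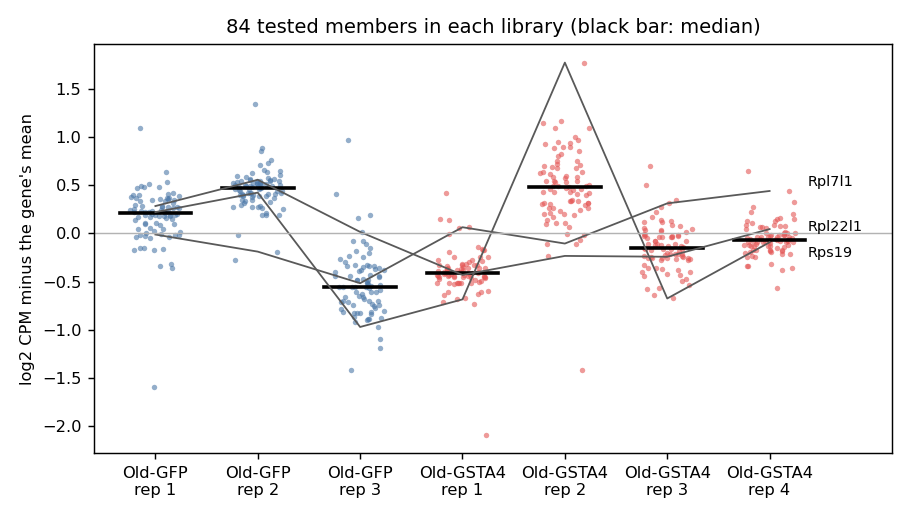
Log2 CPM (with 0.1 CPM added) of each of the 84 tested members minus that gene's mean over the 7 libraries; points are genes, black bars are medians, and grey lines follow Rps19, Rpl22l1 and Rpl7l1. The medians run from -0.55 in Old-GFP replicate 3 to 0.48 in Old-GFP replicate 2 and Old-GSTA4 replicate 2.

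No member passed the comparison of the treatments: 0 of 84 had a Benjamini-Hochberg adjusted p under 0.05 by edgeR, as did 0.0% of the 15075 genes tested. At an unadjusted p under 0.05 there were also 0 members, whereas 11.9% of all genes were past it. DESeq2 called 0 members and 201 genes (1.33%), and limma-voom with quality weights called 0 members and 146 genes (0.968%). The smallest p among members was 0.0616, for Rpl22l1 (adjusted p = 0.436). In none of the 84 members did the groups fail to overlap, against 12.0% of all genes.

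The fitted differences were small. Old-GSTA4 was lower for 59 members and higher for 25 (29.8% higher, against 44.6% of all genes), and the median log2 fold change was -0.10, beside -0.07 for all genes tested. In 74 of 84 members the log2 fold change lay within 0.3 of zero, with a median SE of 0.33. The large subunit (13 higher, 30 lower), the small subunit (8 higher, 23 lower) and the stalk (all 3 lower) each had a median of -0.10. Since the members move together across libraries, these counts do not behave as independent observations.

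**Figure D3:**
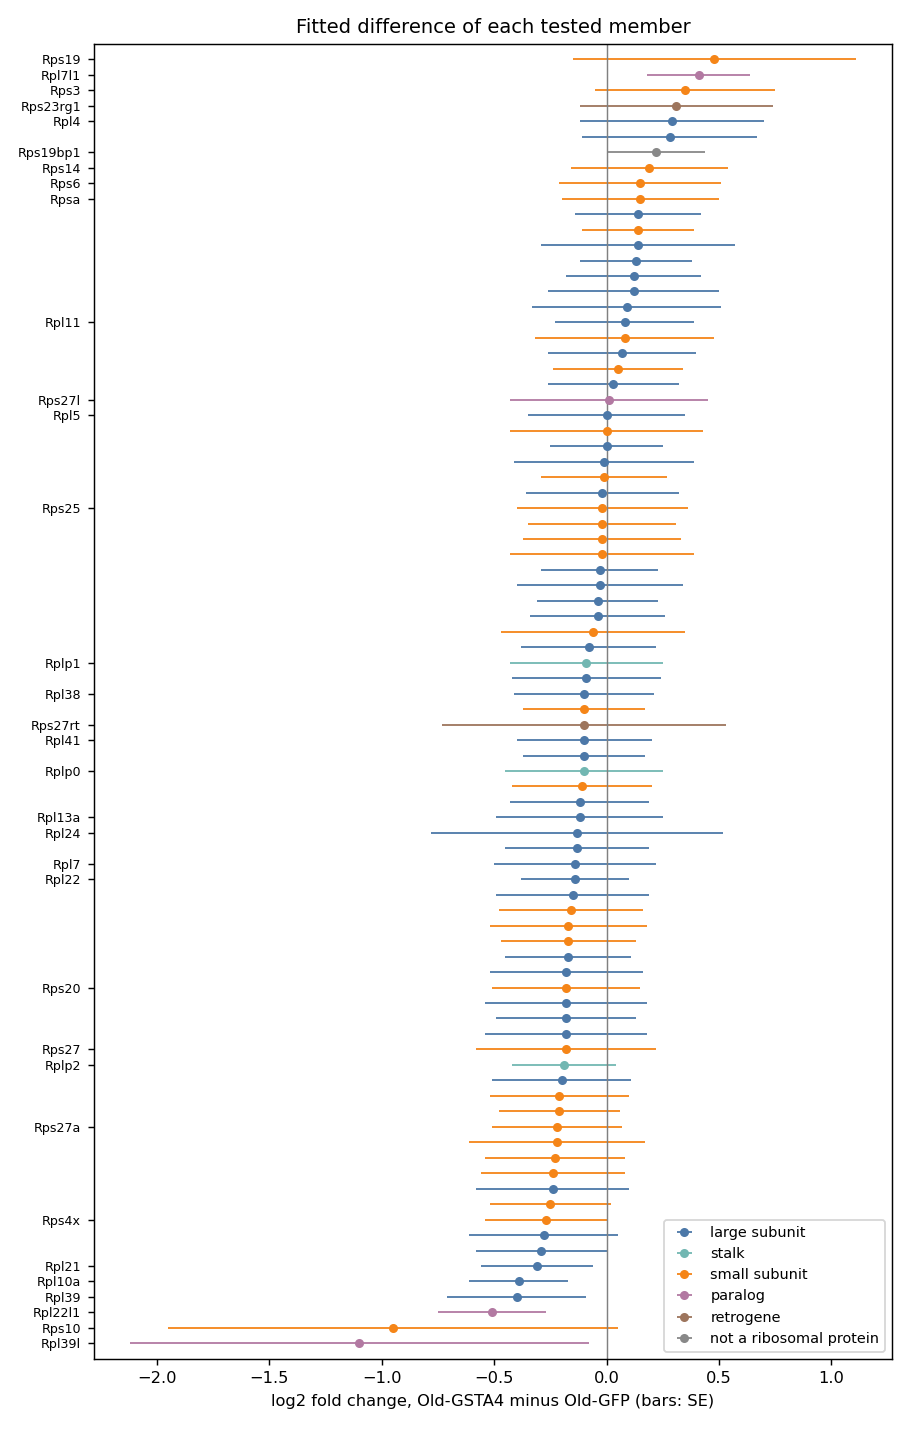
Log2 fold change (Old-GSTA4 minus Old-GFP) with its SE for each of the 84 tested members, coloured by class, with named genes labelled. The points run from -1.10 to 0.48, and the widest bars belong to sparsely counted genes such as Rps10 and Rpl39l.

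The direction and the counts depended on single libraries. Without Old-GFP replicate 2, 16 of 84 members were lower in Old-GSTA4 (median log2 fold change 0.12). Without Old-GSTA4 replicate 1, 31 of 83 were (median 0.04), so the balance of signs turned. Every other alternative fit had more members lower than higher. With limma-voom 82 of 84 were lower (median -0.37, all genes -0.02). With a lens marker score as covariate, chosen after the data were seen, 81 of 84 were lower (median -0.34, all genes -0.08). Without Old-GFP replicate 3, 7 members reached an unadjusted p under 0.05, all lower in Old-GSTA4, against 5.74% of all genes in that direction. Without Old-GSTA4 replicate 2 there was 1 such member, against 5.28% of all genes. With both left out, an alternative chosen after the data were seen, the median log2 fold change of members was -0.56 (all genes -0.02), 44 of 84 members had an unadjusted p under 0.05 and a lower level in Old-GSTA4 (6.42% of all genes), and 65 were lower in every Old-GSTA4 library than in any Old-GFP library (16.6% of all genes). No member passed the adjusted threshold then either, the smallest adjusted p being 0.151. The libraries left out are the lowest Old-GFP and the highest Old-GSTA4 library for this family on the TMM scale, so leaving them out moves the difference toward lower values. Rod marker shares also separated the groups. With a rod marker score as covariate 77 of 84 members were lower (median -0.56, all genes 0.02). In that fit 1 member was lower at an unadjusted p under 0.05 (5.6% of all genes) and 0 passed the adjusted threshold.

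The stalk proteins recruit elongation factors to the ribosome. Rplp0 had 367, 428 and 263 CPM in Old-GFP and 243, 535, 216 and 319 CPM in Old-GSTA4 (log2 fold change -0.10, SE 0.35). Its highest library was Old-GSTA4 replicate 2 and its lowest Old-GSTA4 replicate 3. Rplp1 ranged from 47.7 to 135 CPM in Old-GFP and from 69.7 to 119 CPM in Old-GSTA4, and Rplp2 from 53.7 to 85.9 and from 49.1 to 69.1 CPM. For all 3 the groups overlapped.

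Among small subunit genes, Rps19, needed for maturation of the small subunit RNA, had 291, 335 and 127 CPM in Old-GFP and 155, 856, 156 and 234 CPM in Old-GSTA4. Its log2 fold change of 0.48 (SE 0.63, adjusted p = 0.786 by edgeR) rested on a single library and was -0.46 without Old-GSTA4 replicate 2. Rps3, which lines the mRNA entry channel, had 251, 307 and 151 CPM in Old-GFP and 196, 542, 226 and 240 CPM in Old-GSTA4. Its log2 fold change of 0.35 (SE 0.40) likewise became -0.09 without that library.

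Rps6, the substrate of the S6 kinases, had 225, 231 and 113 CPM in Old-GFP and 140, 337, 174 and 188 CPM in Old-GSTA4. Rpsa, which also serves as a laminin receptor, had 156, 203 and 115 CPM in Old-GFP and 142, 298, 127 and 135 CPM in Old-GSTA4. In both genes Old-GSTA4 replicate 2 was the highest library and Old-GFP replicate 3 the lowest. Rps25, which takes part in initiation at internal entry sites, had means of 215 ± 92.1 CPM (SD, n = 3) and 212 ± 74.5 CPM (SD, n = 4). Rps27a, made as a fusion with ubiquitin, ranged from 95.1 to 176 CPM in Old-GFP and from 91.5 to 167 CPM in Old-GSTA4. X-linked Rps4x was the small subunit gene with the smallest p among the lower ones (log2 fold change -0.27, SE 0.27, adjusted p = 0.714 by edgeR), and its groups overlapped at 103 to 194 and 109 to 167 CPM.

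In the large subunit, Rpl10a had 78.9, 97.8 and 62.6 CPM in Old-GFP and 50.4, 67.6, 61.4 and 64.0 CPM in Old-GSTA4. The groups overlapped through Old-GFP replicate 3 alone. The log2 fold change was -0.39 (SE 0.22, adjusted p = 0.494 by edgeR). Rpl39, a small protein at the peptide exit tunnel, had 58.0, 77.4 and 30.7 CPM in Old-GFP and 31.8, 47.7, 48.1 and 39.8 CPM in Old-GSTA4 (log2 fold change -0.40, SE 0.31). Old-GFP replicate 3 was again its lowest library. Rpl21 had a log2 fold change of -0.31 (SE 0.25), with 130 to 218 CPM in Old-GFP and 126 to 175 CPM in Old-GSTA4.

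Rpl5 and Rpl11, which with 5S RNA form a particle that can bind the p53 regulator MDM2, gave log2 fold changes of 0.00 (SE 0.35) and 0.08 (SE 0.31). Rpl5 ranged from 95.5 to 247 CPM in Old-GFP and from 131 to 252 CPM in Old-GSTA4. Rpl11 ranged from 52.5 to 110 and from 67.6 to 125 CPM. Rpl38, known for its part in the translation of Hox mRNAs, had 86.5, 81.1 and 34.1 CPM in Old-GFP and 52.4, 59.3, 70.0 and 69.0 CPM in Old-GSTA4. Unlike most members it was not highest in Old-GSTA4 replicate 2 within its group.

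Rps14 and Rpl4 were among the most abundant members by count. Rps14, a small subunit protein, had 369, 441 and 196 CPM in Old-GFP and 262, 557, 351 and 364 CPM in Old-GSTA4. Rpl4, a large subunit protein, had 288, 370 and 273 CPM in Old-GFP and 236, 731, 245 and 304 CPM in Old-GSTA4. In both the top library was Old-GSTA4 replicate 2 and the groups overlapped, with log2 fold changes of 0.19 (SE 0.35) and 0.29 (SE 0.41).

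Counts also depend on mRNA length, so levels of different genes were compared per kilobase of mRNA. Over the 74 core genes apart from the 3 described next, the median level was 152 CPM per kb, with quartiles at 104 and 208. Rps14 (608 CPM per kb) and Rpl41 (590 CPM per kb), which encodes the shortest ribosomal protein, headed the order, and Rps20 ended it at 17.2 CPM per kb. The place of Rps20 depends on the transcript model used, which has 3706 bases for a coding sequence of 357. Its mean before division by length was 63.8 CPM. Rpl41 gave 333, 421 and 182 CPM in Old-GFP and 232, 333, 316 and 287 CPM in Old-GSTA4, so its groups overlapped.

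The remaining core genes lay far lower: Rpl13a at 4.44, Rpl24 at 2.01 and Rps10 at 0.86 CPM per kb. These are the core genes whose GENCODE M21 mRNA shares over 50% of its length with another gene model on the same strand: 59.3% with Gm45713 for Rpl13a, 71.5% with Gm28037 for Rpl24 and 66.7% with RPS10-NUDT3 for Rps10. Gm45713 had 0 counts in every library, and the other models have no row. How the counting treated reads that fit 2 gene models is not given in the sources used here, so the counts of these 3 genes are uncertain as levels. Rps10 is sparse enough (0.0932 to 1.39 CPM in Old-GFP, 0.294 to 0.684 CPM in Old-GSTA4) that no fold is given. Rpl24 had 1.08 to 1.68 CPM in Old-GFP and 0.999 to 1.87 CPM in Old-GSTA4, and Rpl13a 4.15 to 5.29 and 3.89 to 5.31 CPM.

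**Figure D4:**
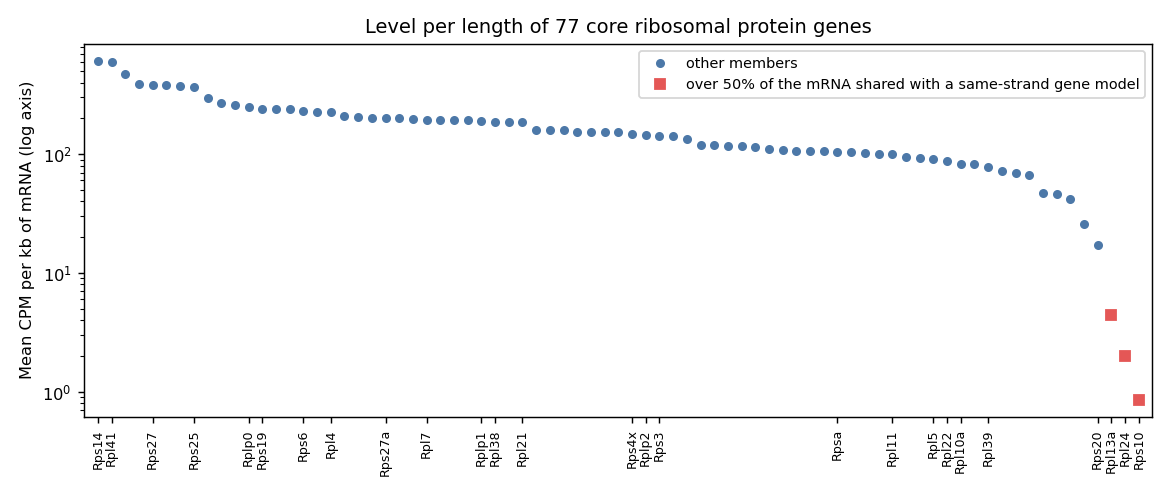
Mean CPM per kb of mRNA, on a log axis, for the 77 core genes in descending order, with named genes labelled; red squares are genes with over 50% of the mRNA shared with a same-strand gene model. The 3 red squares lie at or below 4.44, under the lowest other gene at 17.2.

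Shared sequence affects many more members. Over the 77 core genes, a median of 60.0% of the 50-base stretches of the mRNA also occurred in a transcript of another gene, and 48 genes had over 50% shared. How reads with several matches were counted is not given in the sources used here, so the split of counts between such genes is uncertain.

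Some ribosomal proteins have a second gene whose product can take their place, and the ratio of both within a library does not depend on scaling. Rpl22l1 counts were 56.7%, 53.0% and 52.7% of Rpl22 counts in Old-GFP and 43.5%, 31.2%, 47.3% and 49.7% in Old-GSTA4. Every Old-GSTA4 library was below every Old-GFP library, with Old-GSTA4 replicate 2 the lowest. The mean log2 ratio was -0.89 ± 0.06 (SD, n = 3) and -1.24 ± 0.30 (SD, n = 4), and the difference of -0.35 gave an exact permutation p of 0.0857 (two-sided; 0.257 adjusted over the 3 pairs tested), where the smallest possible p was 0.0286.

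Rpl22l1 itself, which can replace RPL22 and also acts in splicing, had 23.4, 28.3 and 19.4 CPM in Old-GFP and 14.2, 16.3, 16.2 and 19.8 CPM in Old-GSTA4. The groups overlapped by a small margin, between Old-GFP replicate 3 and Old-GSTA4 replicate 4. Its log2 fold change was -0.51 (SE 0.24). Rpl22 had 41.3, 53.5 and 36.8 CPM in Old-GFP and 32.7, 52.0, 34.3 and 39.8 CPM in Old-GSTA4. Of the Rpl22l1 mRNA, 28.8% lies opposite the antisense model Gm33051 and 65.6% of its 50-base stretches recur in other genes, so its counts are uncertain to that extent.

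Rpl7l1, a paralog of Rpl7 with a part in ribosome assembly, had 111, 98.1 and 78.1 CPM in Old-GFP and 117, 104, 139 and 152 CPM in Old-GSTA4. It had the smallest p among the members that were higher (log2 fold change 0.41, SE 0.23, adjusted p = 0.487 by edgeR). Its counts were 44.3%, 30.7% and 53.3% of Rpl7 counts in Old-GFP and 76.2%, 30.1%, 76.1% and 82.0% in Old-GSTA4. In 3 of 4 Old-GSTA4 libraries the ratio was above all of Old-GFP, and in replicate 2 it was the lowest of all libraries. The log2 difference of 0.56 gave an exact permutation p of 0.343 (0.343 adjusted).

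Rps27l, a p53-responsive copy of Rps27, was counted at 107%, 75% and 55.2% of Rps27 in Old-GFP and at 94.2%, 73.2%, 115% and 118% in Old-GSTA4. The groups overlapped (log2 difference 0.37, exact permutation p = 0.257, adjusted 0.343). Rps27 shares 98.6% of its 50-base stretches with other genes, so its side of the ratio is uncertain. Its retrogene Rps27rt had 1.10 to 4.98 CPM in Old-GFP and 1.63 to 4.70 CPM in Old-GSTA4.

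**Figure D5:**
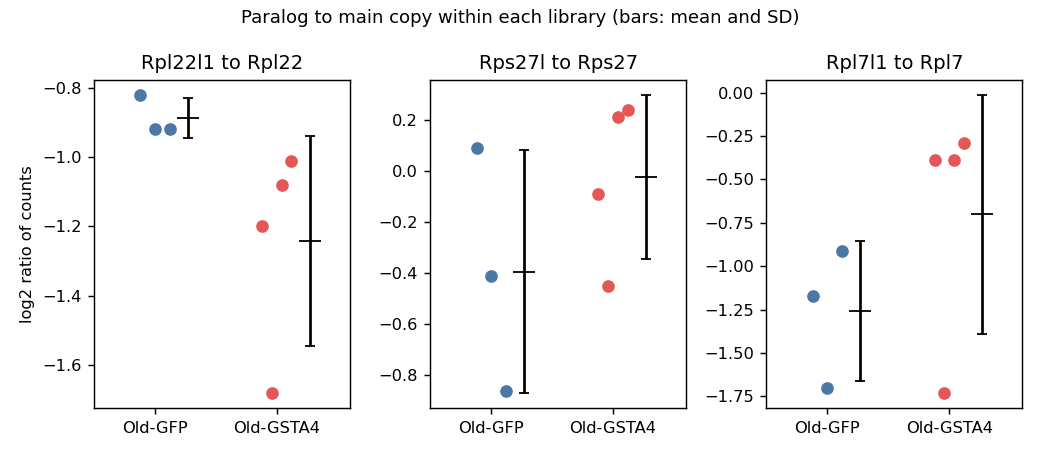
Log2 ratio of counts of a paralog to its main copy in each library, for the 3 pairs with at least 10 counts in every library; bars give the mean and SD of a group. Only the Rpl22l1 to Rpl22 panel has groups that do not overlap.

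The other paralogs had few counts. Rpl39l had 0.765 to 1.30 CPM in Old-GFP and 0.0526 to 0.922 CPM in Old-GSTA4, a few counts in some libraries. Rpl3l, a striated muscle form of RPL3, Rpl36al and the testis form Rpl10l did not pass the expression filter. Rpl3l and Rpl36al reached at most 1.58 and 2.25 CPM, and Rpl10l was at 0 in every library except Old-GFP replicate 3 (0.0478 CPM). Of the Rpl36al mRNA, 63.1% is shared with the same-strand model Gm49383, which had 0 counts in every library. The Rpl36al counts are therefore uncertain as a level, like those of Rpl13a, Rpl24 and Rps10. Rps23rg1, a retrogene of Rps23, had 2.97 to 7.76 CPM in Old-GFP and 5.89 to 10.6 CPM in Old-GSTA4 (log2 fold change 0.31, SE 0.43). Rps19bp1 was among the steadier members, with 19.1, 19.5 and 15.6 CPM in Old-GFP and 21.7, 23.6, 19.4 and 19.7 CPM in Old-GSTA4 (log2 fold change 0.22, SE 0.22).

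How the members' spread compared with that of other genes depended on the genes chosen. Their coefficient of variation of CPM over the 7 libraries had a median of 30.9%, beside 34.8% over the 14506 genes within the members' whole range of mean CPM, most of the genes tested. Among genes of closer abundance the order was the reverse: between 23.6 and 259 CPM, the 10th and 90th percentile of the members, 66 members had a median of 30.5% and 5475 other genes one of 25.4%, and 16 of the 66 members were below the latter. Among the members, Rplp2 (20.7%) and Rpl10a (22.1%) varied less than Rps19 (82.4%) and Rpl4 (49.7%). Their abundance differed too, with means of 60.8 and 69.0 CPM against 308 and 350 CPM. The balance of subunits was compared within each library. Summed small subunit counts were 0.684, 0.664 and 0.627 of summed large subunit counts in Old-GFP and 0.647, 0.720, 0.669 and 0.659 in Old-GSTA4, which overlap.

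Of the ribosome genes outside the naming rule, Rack1 and Fau gave similar values. Rack1, a scaffold on the small subunit, had 126, 134 and 87.7 CPM in Old-GFP and 98.4, 125, 106 and 121 CPM in Old-GSTA4 (log2 fold change -0.04, SE 0.22). Fau, which encodes RPS30 as a fusion, had a log2 fold change of -0.01 (SE 0.26).

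Genes that act around the ribosome were taken as 5 further lists, and none of their genes passed the adjusted threshold by edgeR or by DESeq2. Among 17 tested genes for ribosomal RNA transcription, 3 were higher in Old-GSTA4 at an unadjusted p under 0.05, where 5.27% of all genes were, and 0 were lower. They included Taf1c, of the polymerase I selectivity factor, with 2.10, 1.74 and 0.67 CPM in Old-GFP and 5.10, 3.26, 5.40 and 4.87 CPM in Old-GSTA4 (log2 fold change 1.63, SE 0.54, adjusted p = 0.363 by edgeR), and Polr3b, of polymerase III (log2 fold change 0.81, SE 0.30, adjusted p = 0.374). In both genes every Old-GSTA4 library was above every Old-GFP library, and 12.0% of all genes had no overlap in either direction.

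Among 22 regulators of TOP mRNA translation and growth, 1 was higher at an unadjusted p under 0.05 and 0 were lower, where 5.27% and 6.63% of all genes were. It was Mtor, the kinase that promotes translation of TOP mRNAs, with 62.2, 55.9 and 77.1 CPM in Old-GFP and 121, 94.3, 119 and 97.6 CPM in Old-GSTA4. The groups did not overlap, as in 12.0% of all genes in either direction (log2 fold change 0.73, SE 0.21, adjusted p = 0.363 by edgeR). The inhibitor Tsc2 had a log2 fold change of 0.44 (SE 0.21), and Eif4ebp2, a repressor of cap-dependent initiation, of -0.71 (SE 0.36).

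Of 27 non-ribosomal TOP and translation factor genes, 1 was lower at an unadjusted p under 0.05, where 6.63% of all genes were, and 0 were higher. It was the initiation factor gene Eif3f, with 35, 35.2 and 25.7 CPM in Old-GFP and 21.3, 20.4, 19.6 and 17.6 CPM in Old-GSTA4 (log2 fold change -0.70, SE 0.22, adjusted p = 0.363 by edgeR). Of 45 assembly factors, 1 was lower, Rrs1, with 4.84, 6.14 and 8.13 CPM against 4.42, 2.25, 2.17 and 2.99 CPM (log2 fold change -1.11, SE 0.43), and 0 were higher. Both genes were lower in every Old-GSTA4 library than in any Old-GFP library, as were 5.61% of all genes. Of 14 ribosome rescue genes, 0 passed in either direction.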

How the data were processed

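The authors deposited raw read counts per gene symbol, made with full-length low-input cDNA libraries per the labels' protocols. The submitters' processing notes name STAR 2.7.1a, featureCounts 1.6.2 and the builds GRCm38/mm10 and GRCh38/hg38. The annotation release, strand setting and rule for multi-mapping reads are not given in the sources used here. Total counts ranged from 15329181 to 28998964 per library. No unique molecular identifiers are named, so PCR copies are counted separately.

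The main test was edgeR 4.0.16 (R 4.3.3), a quasi-likelihood F-test with robust dispersion, TMM scaling and the default filter by group, on all 7 libraries with group as the only factor. Benjamini-Hochberg adjustment ran over the 15075 genes tested. The test was tested on simulated data drawn from the observed means and dispersions. CPM values are TMM-scaled. Alternatives used DESeq2 1.42.0, limma 3.58.1 (voom), other scalings and filters, replicate blocks, a rod or lens marker covariate, and libraries left out. Of the symbols, 26 rows repeated another; each was kept. No pair of libraries of a group agreed within sampling noise (chi-square per gene at least 57.5).

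Replicate numbers follow the sample titles. The labels do not say whether equal numbers pair the libraries. Deviations from group means had correlations of -0.0889, 3.33e-05 and 0.00904 for equal title numbers. They were -0.0889, 0.0146 and -0.128 for equal library numbers, and -0.0274 to 0.183 where both numbers differed. So few correlations cannot settle whether libraries were paired. Members were named by rule: in each direction the 5 members of lowest p, if their average log2 CPM was 2 or more, the 3 highest and 3 lowest mean CPM, and a list of members by role. Values of a few single genes are left out and not reported here. The members, lists and rule were chosen with earlier results of these data known. Gene models and lengths came from GENCODE M21 (GRCm38), with a model found for 86 members, and start windows from RefSeq (GRCm38.p6). Exact permutation tests were two-sided, over 35 relabellings.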

Additional observations from a re-analysis of the deposited data

Results flagged for a closer look

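In 8 of 40 results examined in the Old-GSTA4 group, a single library lay far from the other 3, its gap taking more of the group's range than Dixon's 95% critical value of 0.829; chance alone gives about 5% per result, and these results are not independent. The library was Old-GSTA4 replicate 2 each time. It was high for Rps19 (gap 0.887 of the range, 856 CPM), Rps3 (0.871, 542 CPM), Rpl4 (0.863, 731 CPM), Rpsa (0.912, 298 CPM), Rpl3 (0.876, 582 CPM), Rpl10 (0.846, 272 CPM) and Rpl7 (0.835, 344 CPM). It was low for the log2 ratio of Rpl7l1 to Rpl7 (gap 0.931, value -1.73). The Old-GFP group has 3 libraries and was not examined this way. The same library had the 12.2% lens marker share, whose part in these values was not tested.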

How the results depend on the processing

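The count of members past the adjusted threshold was 0 under every alternative run. The count at an unadjusted p under 0.05 (0) was 6 with library totals (15.9% of all genes), 20 with limma-voom (21.7% of all genes), 1 with the rod covariate and 0 to 7 with a library left out, and 44 with Old-GFP replicate 3 and Old-GSTA4 replicate 2 both left out. The median log2 fold change (-0.10) ran from -0.33 to 0.12 with a library left out: it was 0.12 without Old-GFP replicate 2 and 0.04 without Old-GSTA4 replicate 1. It was -0.37 with limma-voom (all genes -0.02) and -0.34 with the lens covariate (all genes -0.08). It was -0.56 both with the rod covariate (all genes 0.02) and with both libraries left out (all genes -0.02). Library totals moved the median of all genes from -0.07 to -0.37 and that of members to -0.34. Members without overlap (0, against 12.0% of all genes) numbered 4 of 84 with library totals. The share of all genes was not counted on that scale, so the 4 cannot be set against it. With a library left out there were 0 to 17, the 17 without Old-GFP replicate 3 (24.3% of all genes). With both left out there were 66 (35.9% of all genes). The difference in summed share (-0.183 percentage points) ran from -0.343 to -0.0536 with a library left out, and was -0.455 with both left out and 0.00408 with TMM-scaled library sizes. The log2 difference in subunit balance (0.03) was 0.00 to 0.06 and -0.03. Pathway genes at an unadjusted p under 0.05 numbered 6 in the main fit (11.9% of all genes) and 10 with library totals (15.9% of all genes). The lists held 27, 45, 17, 22 and 14 tested genes, beside 3 ribosome genes outside the naming rule.

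Rps19 (0.48) became -0.35 with limma-voom, -0.40 under the replicate block by library number, -0.46 without Old-GSTA4 replicate 2 (up to 0.75 with another library left out), -0.40 with the rod covariate, -0.49 with the lens covariate and -0.79 with both left out. Rps3 (0.35) became -0.10, -0.05, -0.09, -0.11, -0.11 and -0.34 in the same order, with 0.58 at most when another library was left out. Rps23rg1 (0.31) became -0.06 with limma-voom, -0.02 without Old-GFP replicate 3 (up to 0.53 with another left out), -0.05 with the rod covariate and -0.02 with both left out. Rps19bp1 (0.22) became -0.06 with library totals. With a replicate block by title or library number, 0 members and 1 gene passed the adjusted threshold, and the median of members was -0.06 and -0.26. The paralog differences kept their sign with each library left out: -0.43 to -0.21 for Rpl22l1, 0.14 to 0.61 for Rps27l and 0.34 to 0.90 for Rpl7l1. The cause of these changes was not tested. The members' median coefficient of variation minus that of other genes (-3.88 percentage points over the whole CPM range) was 5.08 among genes between the 10th and 90th percentile of member CPM. The lens covariate, the pair left out and this narrower range were chosen after seeing the data. With 3 and 4 libraries and a median SE of 0.33, small shared differences could not be resolved, and 3 counts, the smallest level read as detected, equal 0.111 to 0.176 CPM.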
